A study of Mus musculus with 8 samples.

Results

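The 48 genes described here are stimulated by type I interferon in the mouse. They were chosen on the symbols of known interferon targets with earlier results of these same counts in view, both the levels across libraries and the fold changes, and all 48 were among the 17252 genes tested, out of 40659 in the count table. Its pattern across libraries and its difference between groups are given as a description and support nothing about it. PolyA-RNA was sequenced from the whole hippocampus of 8 male C57BL/6JRj mice without any mutant allele named in the labels, and each library came from a separate numbered animal. Adeno-associated virus was injected into dorsal and ventral hippocampus at 7 to 8 weeks of age, the tissue was taken 4 weeks later, and the labels give an age of 12 to 13 postnatal weeks. The 4 hp708 mice received a virus that overexpresses miR-708-5p from a hairpin placed behind EGFP, and the 4 hpCTL mice received a virus with a control hairpin. Both groups therefore had surgery and carry a virus. The hairpin is driven by the human synapsin promoter, which acts in neurons, and an uninjected hippocampus was not analysed here.

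Type I interferons are cytokines that nearly every cell can make when its sensors meet foreign or misplaced nucleic acid. They bind the receptor of IFNAR1 and IFNAR2, whose kinases activate transcription factors such as STAT2, which with IRF9 bind the interferon-stimulated response element in front of target genes. The products of those genes detect, degrade or trap viral RNA and viral particles, and in the brain microglia, astrocytes, vessels and neurons can all express them.

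The response element is visible in the DNA of many of the 48 genes. In 300-base windows from RefSeq (assembly GRCm38.p6, 250 bases before to 50 after the gene start), 35 of the 48 genes could be looked up, and each of these windows matched GRCm39 once. The core of the element was searched as GAAA, any 2 bases and GAAA on either strand, where neighbouring cores may overlap. It was found for 17 of the 35 genes (48.6%), against 462 of 12223 tested genes with a window (3.78%) and 3.44% of all 32851 windows. With only the first window of each gene the shares were 48.6% and 3.06%. The gamma-activated site, TTC, any 3 bases and GAA, was found for 6 of the 35 (17.1%) and for 8.23% of the tested genes. A match says only that the letters are there.

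A few windows of 60 bases that lie before the annotated gene are shown because they hold the core in its different forms, single or repeated and in either orientation. They are written along the gene's own strand in GRCm39, with the cores in capitals.
Isg15, chr4:156285319-156285378, minus strand: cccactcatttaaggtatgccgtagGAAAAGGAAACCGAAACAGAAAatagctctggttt
Bst2, chr8:71990212-71990271, minus strand: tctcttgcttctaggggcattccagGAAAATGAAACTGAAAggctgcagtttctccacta
Ifit1, chr19:34618160-34618219, plus strand: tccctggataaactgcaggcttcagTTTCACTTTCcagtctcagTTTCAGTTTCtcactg
Ifit3, chr19:34560748-34560807, plus strand: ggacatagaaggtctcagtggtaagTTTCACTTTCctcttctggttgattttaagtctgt
Oas3, chr5:120915765-120915824, minus strand: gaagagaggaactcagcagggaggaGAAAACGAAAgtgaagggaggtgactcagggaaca
Stat2, chr10:128106120-128106179, plus strand: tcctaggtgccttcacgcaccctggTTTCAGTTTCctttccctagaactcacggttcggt
Isg15 carries 3 overlapping cores in a row and Bst2 carries 2. Ifit1 carries 2 separate cores on the other strand, as TTTC, any 2 bases and TTTC. The window of Ifit3 recurs letter for letter in front of its neighbour Ifit3b (chr19:34585144-34585203). In all, 8 of the 17 genes had more than 1 core, and the first core began between 222 bases before and 32 bases after the start, at a median of 75 bases before it.

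**Figure D1:**
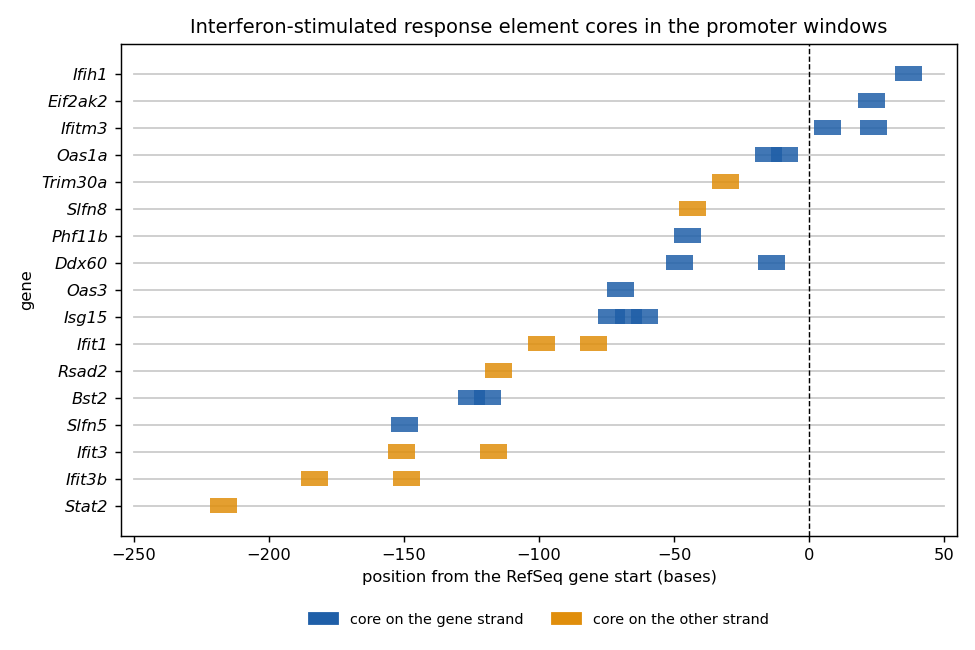
Each row is 1 of the 17 genes whose promoter window holds the core, the x axis is the position in bases from the RefSeq gene start, and blocks are 10-base cores on the gene strand (blue) or the other strand (orange). For 10 genes the first core lay within 150 bases before the start, and for Ifitm3, Eif2ak2 and Ifih1 it lay after the start.

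The virus adds a miRNA, so the genes were also searched for its sites. The mature sequence from RefSeq is printed with the seed, bases 2 to 8, in capitals because pairing to these bases defines a site.
mmu-miR-708-5p: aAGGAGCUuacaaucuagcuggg
A 7-base match to the seed (AGCTCCT, or GCTCCTA with an adenosine opposite the first base) occurred in 10 of the 46 genes that have an annotated 3'UTR, taken at its longest (21.7%), and in 26.5% of 14808 tested genes. The 10 genes were Ifih1, Ifit3, Lgals3bp, Ly6e, Oas3, Rsad2, Slfn5, Trim25, Trim30a and Zc3hav1. Their median log2 fold change, hp708 against hpCTL, was -0.39 with 3 surrogate variables and -0.14 without, against -0.53 and -0.19 for the 36 genes without a site. Without the library labelled hp708 replicate 1 these medians were -0.06 and -0.01 for the genes with a site and -0.10 and -0.02 for those without. The median 3'UTR was 1361 bases long over these 46 genes and 1865 over the 14808. These polyA counts do not measure mature miRNAs, so the overexpression itself could not be checked in them.

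The libraries held 22606824 to 28462428 counts, and a count of 3 in one library corresponds to 0.107 to 0.131 CPM, which are counts scaled to the TMM-normalized library size. The lowest count of any of the 48 genes in any library was 30. The 8 genes listed as marks of hippocampal regions summed to 626 to 868 CPM in the 8 libraries. No other tissue was set beside them, so this does not test the tissue label. The library labelled hp708 replicate 1 has conflicting group labels, because its animal number stands among the hpCTL mice in the study's source data for a qPCR experiment. It was kept as labelled, and fold changes are also summarised without it. The labels name no batch. Whether reads were counted by strand, and how reads with several matches were treated, is not given in the sources used here. Genes with overlapping exons can therefore share reads. Ifitm3 shares 60.9% of its exon bases with an antisense transcript, Isg15 31.1% and Slfn8 24.9%. Rtp4 shares 26.6% with a transcript on its own strand, and Parp9 with Dtx3l, Ifi27 with Ifi27l2a and Ifi35 with Vat1 overlap on opposite strands. Values of close copies (Ifit3 and Ifit3b, the Oas1 genes, Phf11b and Phf11d, Slfn8) are uncertain for the same reason.

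The 48 genes moved together from mouse to mouse, and 3 libraries stood apart. Their mean log2 CPM was 3.08, 4.04, 4.22 and 4.27 in hpCTL replicates 1 to 4 and 3.15, 4.17, 3.31 and 4.11 in hp708 replicates 1 to 4. One hpCTL mouse and the hp708 mice 1 and 3 were low, the other 5 were high, and the groups overlapped. Summed over the genes, the low libraries held 841 to 892 CPM and the other libraries 1321 to 1580 CPM. The same 3 libraries were the lowest for 45 of the 48 genes, against 6.03% of all tested genes, and for 37 genes the largest gap between neighbouring libraries lay right above them, against 2.31%. Without the library labelled hp708 replicate 1, hpCTL replicate 1 and hp708 replicate 3 were the lowest of the other 7 for 45 genes, against 10.2% of all tested genes. Without hpCTL replicate 1, hp708 replicates 1 and 3 were the lowest of the other 7 for 47 genes, against 9.59%. Across the gap the fold was 1.10 to 2.22, with a median of 1.47 over the 45 genes. These shares stand beside the background only for scale, because the list was chosen with the libraries known.

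**Figure D2:**
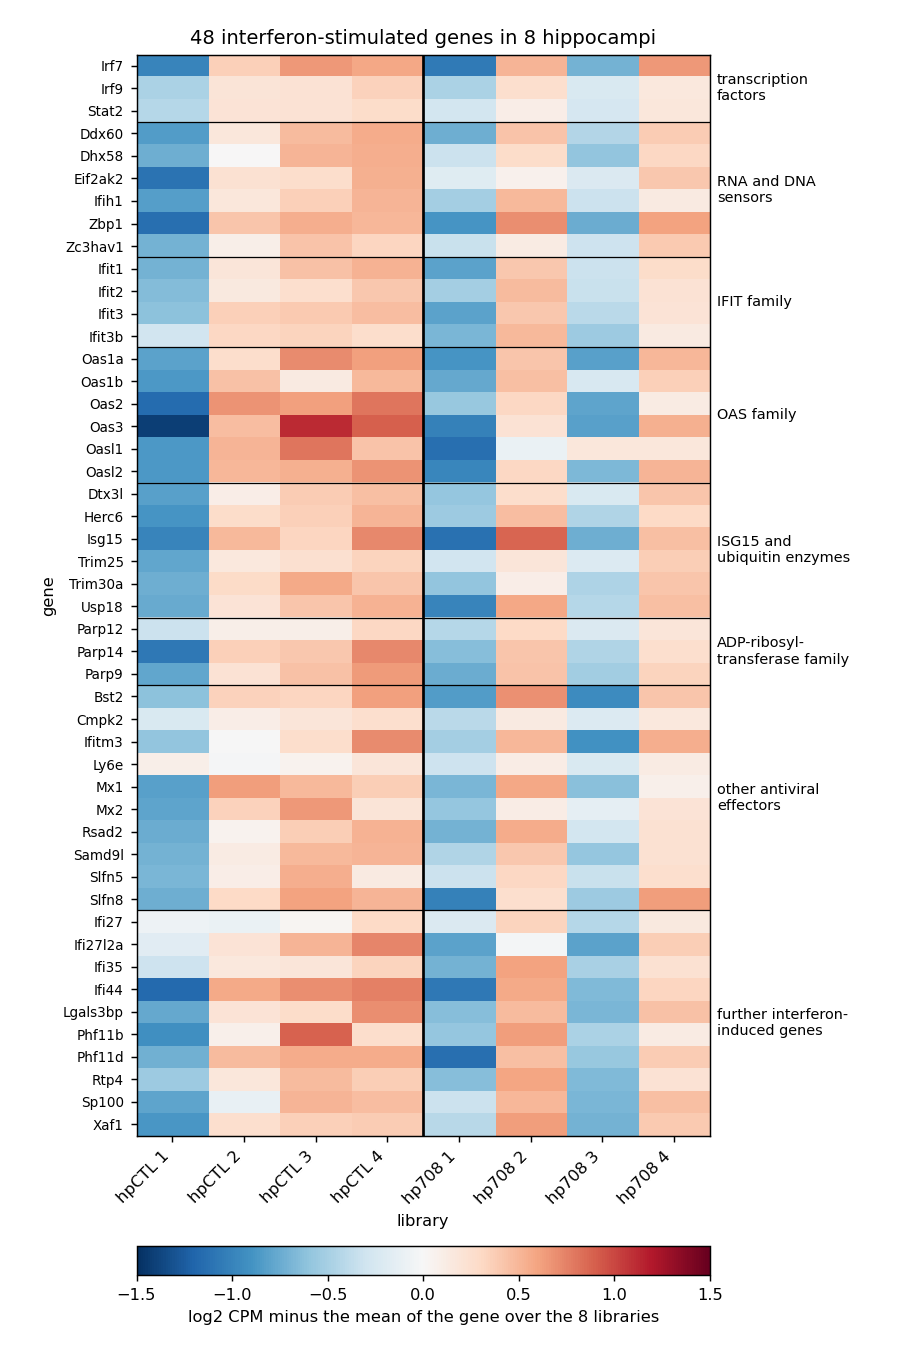
Rows are the 48 genes in 8 groups by role, columns are the 4 hpCTL and 4 hp708 libraries, and colour is log2 CPM minus the gene's mean over the 8 libraries (blue lower, red higher). The columns of hpCTL 1, hp708 1 and hp708 3 are blue in nearly every row and the other 5 are red, so the pattern runs across both groups.

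The size of the swing differed among genes. Highest over lowest CPM had a median of 2.63 over the 48 genes, from 1.41 for Ly6e to 5.78 for Oas3, against 1.47 over the 17185 tested genes with counts in every library. Their within-group SD of log2 CPM had a median of 0.568, against 0.185 over all tested genes. For 47 of the 48 genes the difference of the group means was smaller than this SD, as it was for 85.3% of all tested genes. The exception was Ifi27l2a. No gene of the 48 separated the groups, while 1.51% of all tested genes had groups that did not overlap. Without the library labelled hp708 replicate 1 the difference was under the SD for 48 genes, as for 78.9% of all tested genes, and again 0 separated the groups, against 4.92%. The highest library was hpCTL replicate 4 for 24 genes, hp708 replicate 2 for 11, hpCTL replicate 3 for 9, hp708 replicate 4 for 3 and hpCTL replicate 2 for 1. The lowest was hpCTL replicate 1 for 27 genes, hp708 replicate 1 for 17 and hp708 replicate 3 for 4, which were the lowest for 21.1%, 10.1% and 13.9% of all tested genes. Across all genes hpCTL replicate 1 stood apart in its group. It was the highest library for 25.5% of all tested genes (6.11% to 7.92% for the other hpCTL libraries), and it differed from those with a chi-square per degree of freedom of 34.98 to 46.2, against 10.04 to 16.3 among them.

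Levels also spanned a wide range when set per length of annotated exon. The most abundant of the 48 genes was Ly6e, with a mean of 65.8 CPM per kb of exon. Ifitm3, Bst2, Lgals3bp and Ifi27 followed with 25.0, 21.5, 21.1 and 16.7 CPM per kb. At the other end stood Oas3 with 0.477, Oas1a with 0.67 and Ddx60 with 0.851 CPM per kb.

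The factors that carry the interferon signal to DNA varied by different amounts. Stat2 (ENSMUSG00000040033, chr10:128106352-128128735 in GRCm39), a factor that the receptor's kinases activate, had 43.8, 68.1, 68.5 and 71.6 CPM in hpCTL and 48.7, 63.3, 49.7 and 66.3 CPM in hp708. Irf9, which brings STAT2 to the response element, had 24.6, 38.8, 39.7 and 43.3 CPM in hpCTL and 24.5, 40.5, 29.1 and 38.0 CPM in hp708. Both differed by less than 2-fold between any pair of libraries. Irf7, which amplifies the production of interferon, had 9.78, 25.1, 30.7 and 29.1 CPM in hpCTL and 9.35, 27.9, 11.9 and 30.7 CPM in hp708. Its highest library stood 3.28 times above its lowest, and the high and low libraries were 2.10-fold apart at the gap. Each of the 3 genes had the same low libraries in both groups.

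**Figure D3:**
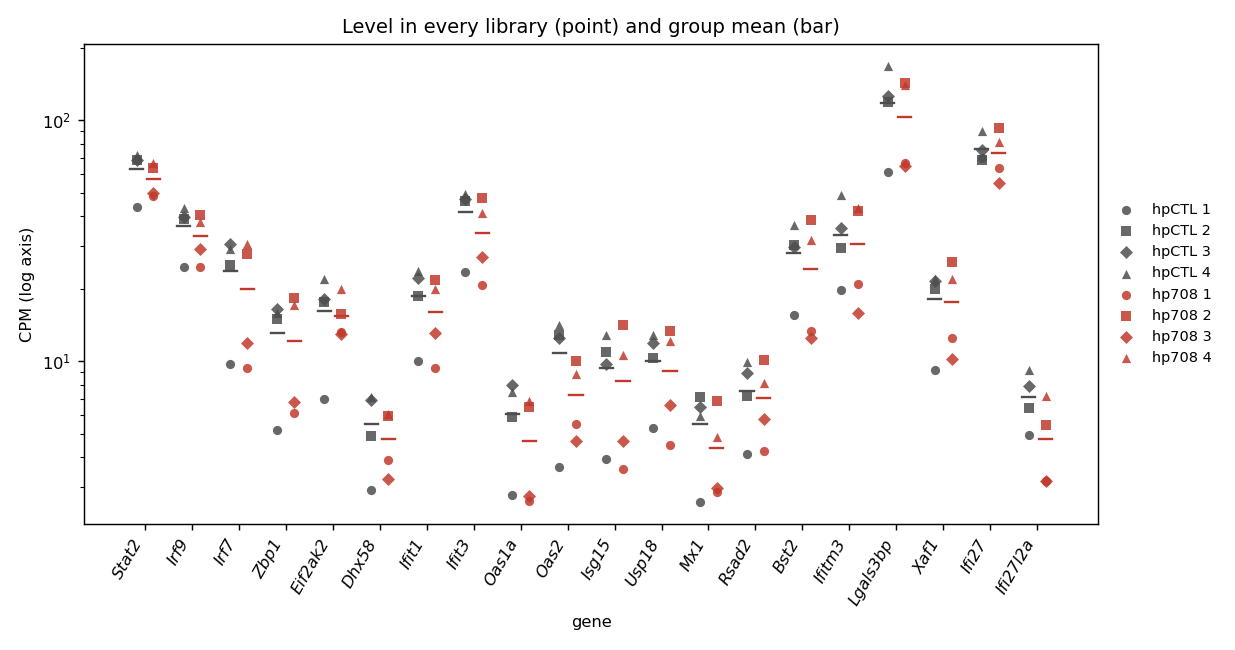
For 20 of the genes the CPM of every library is plotted on a log axis, hpCTL in grey and hp708 in red, with 1 symbol per replicate number and a bar at the group mean. In each gene the points of the groups overlap, and for all but Ifi27 the lowest 3 points belong to hpCTL 1, hp708 1 and hp708 3.

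Sensors of RNA and DNA showed the pattern in all 6 genes of the group. Zbp1, a sensor of Z-form nucleic acid that can trigger cell death, had 5.18, 15.04, 16.5 and 15.9 CPM in hpCTL and 6.13, 18.4, 6.78 and 17.1 CPM in hp708. At 2.22-fold its gap between low and high libraries was the widest of the 48 genes. Dhx58, which encodes the RIG-I relative LGP2, had 2.93, 4.90, 6.93 and 7.13 CPM in hpCTL and 3.91, 5.91, 3.24 and 6.03 CPM in hp708. Eif2ak2, the kinase PKR that halts translation on double-stranded RNA, had 7.00, 17.7, 18.1 and 21.9 CPM in hpCTL and 13.3, 15.8, 13.0 and 19.95 CPM in hp708. For Eif2ak2 the low hp708 libraries lay much nearer to the high ones than hpCTL replicate 1 did. The other sensors, Ifih1 (MDA5), Ddx60 and Zc3hav1 (ZAP), had highest over lowest CPM of 2.53, 2.62 and 2.19.

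The IFIT proteins, which bind foreign RNA ends, swung by similar amounts in their 4 genes. Ifit1 (ENSMUSG00000034459, chr19:34618271-34632174) had 10.1, 18.6, 22.3 and 23.6 CPM in hpCTL and 9.42, 21.7, 13.2 and 19.9 CPM in hp708. Ifit3 had 23.5, 46.3, 47.2 and 49.5 CPM in hpCTL and 20.7, 47.5, 27.1 and 41.4 CPM in hp708. In Ifit3 hpCTL replicates 2 to 4 lay close together and hpCTL replicate 1 lay far below. Highest over lowest CPM in the 4 IFIT genes was 2.17 to 2.51.

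Active enzymes of the OAS family make oligoadenylates that switch on RNase L, and 1 gene of the family, Oas3, had the widest swing of the 48. Oas1a had 2.78, 5.86, 7.96 and 7.47 CPM in hpCTL and 2.65, 6.48, 2.77 and 6.86 CPM in hp708. Oas2 had 3.64, 12.9, 12.5 and 14.1 CPM in hpCTL and 5.47, 10.04, 4.69 and 8.84 CPM in hp708. In Oas2 the 3 high hpCTL libraries stood above all 4 hp708 libraries, but hpCTL replicate 1 was the lowest of the 8. Oas3 had 1.07, 3.94, 6.19 and 5.29 CPM in hpCTL and 1.41, 3.30, 1.62 and 4.13 CPM in hp708. Oasl1 was 1 of 3 genes in which other libraries entered the lowest 3, since hp708 replicate 2 had 2.30 CPM and hp708 replicates 3 and 4 both had 2.77 CPM. Highest over lowest CPM in the 6 genes was 2.54 to 5.78.

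ISG15 is a ubiquitin-like protein that interferon-treated cells attach to other proteins. Isg15 (ENSMUSG00000035692, chr4:156283883-156285303) had 3.93, 10.9, 9.72 and 12.8 CPM in hpCTL and 3.59, 14.2, 4.69 and 10.6 CPM in hp708. Usp18, which removes ISG15 and dampens the receptor, had 5.28, 10.3, 11.9 and 12.8 CPM in hpCTL and 4.49, 13.3, 6.61 and 12.1 CPM in hp708. In both genes hp708 replicate 2 was the highest library and hp708 replicate 1 the lowest. The ligases Herc6, Trim25, Trim30a and Dtx3l had highest over lowest CPM of 2.21 to 2.63. The ADP-ribosyltransferase genes Parp9, Parp12 and Parp14, of which Parp9 acts with the ligase DTX3L, had 1.66 to 3.46.

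Other antiviral effectors were 10 genes, and 9 of them had the same 3 lowest libraries. Mx1, a dynamin-like GTPase, had 2.61, 7.08, 6.44 and 5.93 CPM in hpCTL and 2.86, 6.87, 2.98 and 4.83 CPM in hp708. Rsad2, the enzyme viperin, had 4.14, 7.21, 8.94 and 9.95 CPM in hpCTL and 4.24, 10.2, 5.75 and 8.14 CPM in hp708. Bst2, the tetherin that holds budding virus at the cell surface, had 15.6, 30.5, 29.9 and 36.6 CPM in hpCTL and 13.3, 38.5, 12.4 and 31.9 CPM in hp708. Low and high libraries were 1.92-fold apart at the gap in Bst2 and 1.25-fold in Rsad2. Ifitm3, which blocks viral entry from endosomes, had 19.8, 29.6, 35.9 and 48.9 CPM in hpCTL and 21.0, 42.1, 15.9 and 43.4 CPM in hp708. Ly6e, a surface protein of broad expression, had 317, 295, 309 and 336 CPM in hpCTL and 239, 320, 254 and 325 CPM in hp708. Only the low hp708 libraries were set apart in Ly6e, and hpCTL replicate 1 was among the high ones.

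The remaining 10 genes are known for their induction more than for 1 function. Lgals3bp, a secreted glycoprotein, had 60.9, 119, 126 and 168 CPM in hpCTL and 66.2, 143, 64.4 and 140 CPM in hp708. Xaf1, a promoter of apoptosis, had 9.17, 19.9, 21.5 and 21.9 CPM in hpCTL and 12.5, 25.8, 10.2 and 21.9 CPM in hp708. Both repeated the low and high libraries of the list. Ifi27, a small membrane protein, had 69.9, 68.6, 75.2 and 90.5 CPM in hpCTL and 63.5, 92.7, 54.9 and 81.2 CPM in hp708, and hpCTL replicate 2 was below hpCTL replicate 1. Its relative Ifi27l2a had 4.93, 6.38, 7.92 and 9.20 CPM in hpCTL and 3.19, 5.43, 3.20 and 7.19 CPM in hp708. The high and low libraries of Ifi27l2a nearly met, 1.10-fold apart. Ifi44 had the widest swing of these 10 genes, with a highest over lowest CPM of 3.79.

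Between the groups, all 48 genes were lower in hp708 when edgeR's quasi-likelihood test was fitted with 3 surrogate variables, estimates of unknown variation, as were 53.2% of all tested genes. The median log2 fold change of the 48 was -0.51, from -1.01 for Oas3 to -0.17 for Trim25, with a median standard error of 0.113, against -0.01 over all tested genes. Without the library labelled hp708 replicate 1 it was -0.09 and 38 genes were lower, against 51.3% of the genes in that fit. If every library had to hold at least 10 counts it was -0.21 and 46 were lower, against 51.0%. No gene of the 48 passed a Benjamini-Hochberg FDR of 0.05 in this edgeR fit, in which 0.0058% of all tested genes (1 gene) did, and the FDR of the 48 lay between 0.221 and 0.735. An unadjusted p below 0.05 was reached by 40 of the 48, against 4.87% of all tested genes that did so and were lower. That count was 6 without hp708 replicate 1, against 6.72%, and 15 if every library had to hold at least 10 counts, against 3.25%. With any other single library left out it was 34 to 46, where 363 to 1160 of the 17429 to 17495 genes fitted did so and were lower. Ifit3, at the lowest FDR, had a log2 fold change of -0.59 (SE 0.07). Since the list was chosen with this contrast known, nothing is read from these counts.

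Without surrogate variables the same genes were again all lower, as were 52.9% of all tested genes, but by less and with a wider error. Their median log2 fold change was -0.19, from -0.66 to -0.01, with a median standard error of 0.317. It was -0.02 without hp708 replicate 1, and 29 genes were lower, against 51.1%. Without hpCTL replicate 1 it was -0.39, and -0.52 with 3 surrogate variables. With neither hpCTL replicate 1 nor surrogate variables, 5 of the 48 had an unadjusted quasi-likelihood p below 0.05, against 348 of the 17495 genes in that fit. With all 8 libraries and no surrogate variables, no unadjusted p of the 48 was below 0.05 by that test (the lowest was 0.0796). The share over all tested genes was 1.81%, and edgeR's lowest FDR among the 48 was 0.999. For Trim25 and Eif2ak2 the plain difference of mean log2 CPM was above 0, at 0.03 in both. The 3 surrogate variables held 73.7% of the variance of the 48-gene mean across the 8 libraries, where the median over all tested genes was 67.0%. The first of them had a Pearson r of -0.82 with that mean over the 8 libraries, given as a description because it was estimated from the same counts.

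By family, the median log2 fold change with 3 surrogate variables was -0.78 in the OAS family, -0.54 in the IFIT family, -0.53 in the ADP-ribosyltransferases, -0.52 in the further interferon-induced genes, -0.48 in ISG15 and the ubiquitin enzymes, -0.46 in the other antiviral effectors, -0.39 in the sensors and -0.33 in the transcription factors. Without surrogate variables the OAS median was -0.44 and the others lay between -0.26 and -0.13. Without hp708 replicate 1 the OAS median was -0.35 with 3 surrogate variables and -0.22 with none, and the others lay between -0.14 and -0.02 and between -0.08 and 0.08. The OAS family had the lowest median in each of these 4 fits, and the difference between families was not tested.

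**Figure D4:**
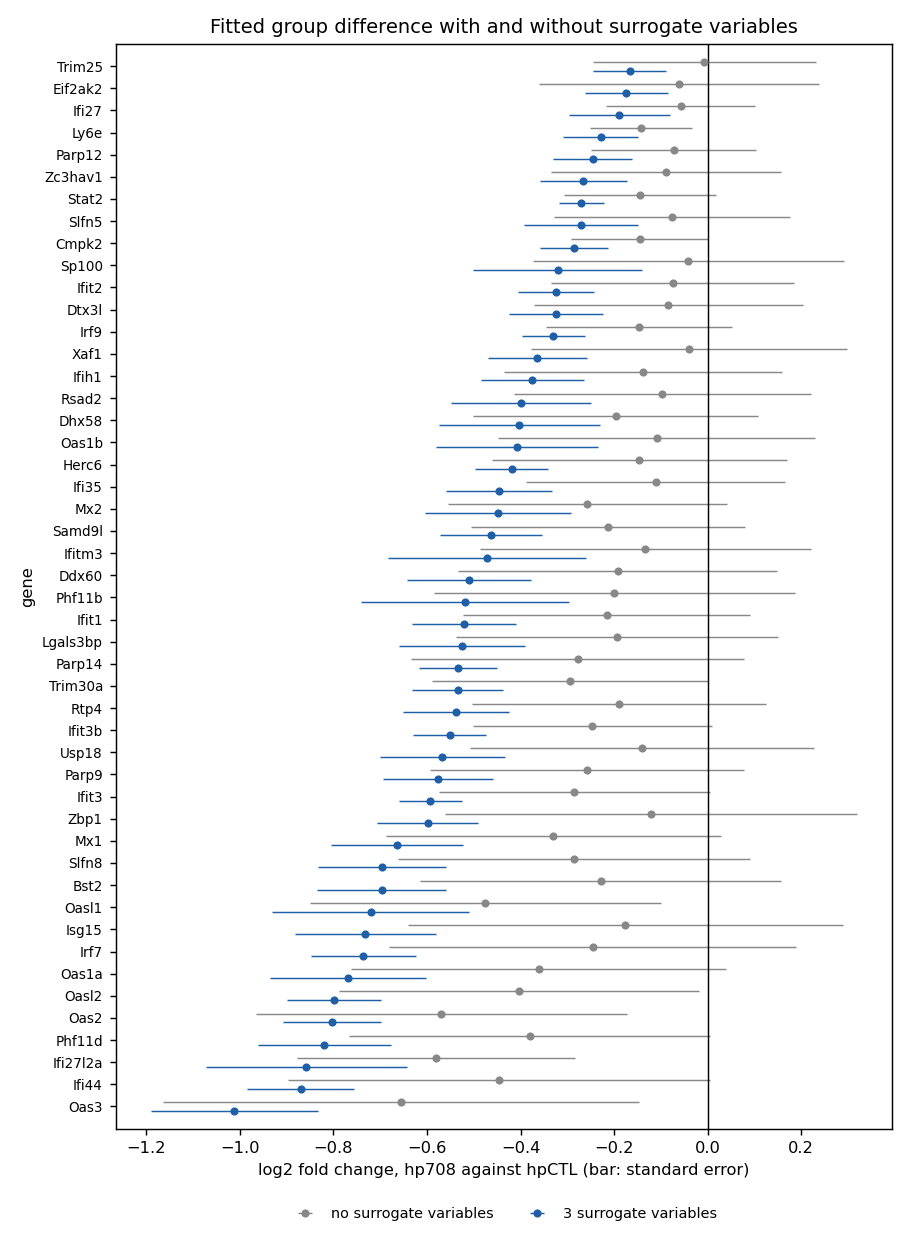
Points are the log2 fold change of each of the 48 genes, hp708 against hpCTL, with 3 surrogate variables (blue) and without (grey), and bars are standard errors, median 0.113 and 0.317. All points lie below 0, the blue ones farther below it, and most grey bars reach 0.

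The calls changed with the test and with the libraries fitted. With 3 surrogate variables edgeR's likelihood ratio test called 18 of the 48 genes at an FDR below 0.05, against 0.736% of all tested genes, and DESeq2 called 16, against 0.556%. Both tools called 15 of these, among them Ifit3, Oas2, Oas3, Isg15, Irf7, Bst2 and Zbp1. Without surrogate variables neither tool called any of the 48, against 0.0116% of all tested genes by each. Neither gave any of the 48 an unadjusted p below 0.05, against 1.56% of all tested genes by the likelihood ratio test and 1.84% by DESeq2. Refitted with 3 surrogate variables but without hp708 replicate 1, a check added after the data were seen, edgeR's likelihood ratio test called 0 of the 48 at an FDR below 0.05, against 2.55% of all genes in that fit, and gave 3 an unadjusted p below 0.05, against 10.2%. DESeq2 so refitted also called 0, against 1.57%, and gave 2 an unadjusted p below 0.05, against 6.72%. Without hp708 replicate 4 the median log2 fold change was -0.71 in the quasi-likelihood fit with 3 surrogate variables.

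The other genes of the interferon pathway, 77 listed by role apart from the 48, gave 71 tested genes. None passed an FDR of 0.05 in edgeR's quasi-likelihood test, 38 had an unadjusted p below 0.05 and were lower (background 4.87%), and 64 of the 71 were lower (background 53.2%). The median log2 fold change was -0.36 with 3 surrogate variables and -0.16 without, and 49 of the 71 had the same 3 lowest libraries (background 6.03%). Without hp708 replicate 1, 5 had an unadjusted p below 0.05, 4 of them lower (background 6.72%), 46 of the 71 were lower (background 51.3%), and the medians were -0.06 and -0.04. For 53 genes hpCTL replicate 1 and hp708 replicate 3 were then the lowest of the other 7 (background 10.2%). Of the interferon genes listed, hardly any transcript was counted apart from Ifng, and other interferon genes were not looked up. Ifnb1 had 1 count in the 8 libraries together, Ifna2 had 2, Ifne had 4, and Ifna4, Ifnk and Ifnl2 had none, which allows up to 3 counts a library. Type II interferon, Ifng, had 0.107 to 0.609 CPM, and hp708 replicate 1 was above hpCTL replicate 2.

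Receptors and their kinases receive the signal, and the further targets answer it. Of the 4 receptor genes, Ifnar2 alone had the same lowest libraries, with 17.6 to 20.6 CPM against 21.6 to 25.3 CPM. Highest over lowest CPM was 1.24 for Jak1 and 1.44 for Tyk2. Of 30 further interferon targets all were lower with 3 surrogate variables (background 53.2%) and 26 had the same lowest libraries (background 6.03%), among them B2m, Tap1, Psmb8 and Cd274. Without hp708 replicate 1, 24 of the 30 were lower (background 51.3%). Ccl5, a chemokine that T cells also make, had 10.4, 24.8, 39.5 and 36.6 CPM in hpCTL and 3.15, 27.7, 8.53 and 37.2 CPM in hp708, the widest range among the tested genes of this list.

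A search over the 17204 other tested genes gave those most like the mean of the 48, by Pearson r over the 8 libraries. The 8 points share depth, dissection and the split into low and high libraries, so r only ranks genes here. The 15 highest, with r from 0.983 to 0.996, included Serpina3f, Entpd1, Ifi47, Fcgr1, Acod1, Cxcl10, Nod1, Fyb1, Mir5107, Pik3ap1, Ly6a, H2-Q4 and Gbp5. Mir5107 lies within Cd74, so its counts can hold reads of that gene. Serpina3f had 1.29 to 1.88 CPM in the low libraries and 6.60 to 7.89 CPM in the others. At the other end were Camkv, Tnfrsf8, AW047730, Lmbr1 and Neurl1a, with r from -0.960 to -0.929. Camkv, a kinase-like protein of synapses, had 802 to 846 CPM in the 3 low libraries and 691 to 723 CPM in the others. Among the 48 themselves r had a median of 0.966 and was lowest for Ly6e, at 0.685.

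Markers of immune cells moved with the 48 genes. In whole tissue, fewer cells of a type and less RNA per cell cannot be told apart. The microglia list (8 of 10 genes with the same 3 lowest libraries) summed to 650 to 805 CPM in those libraries and 924 to 1157 CPM in the others. P2ry12, a marker of resting microglia, stayed between 34.7 and 39.4 CPM in all 8. T cell genes (8 of 9) summed to 18.1 to 22.8 CPM against 40.9 to 65.6 CPM, and Cd3e had 1.52 to 2.07 CPM against 3.49 to 6.94 CPM. NK and cytotoxic genes (2 of 3 tested) summed to 1.11 to 1.52 CPM against 4.09 to 6.11 CPM. B and plasma cell genes (5 of 8) summed to 2062 to 2178 CPM against 3168 to 6050 CPM, mostly Igkc and Ighm. Genes of border and infiltrating macrophages (4 of 6 tested) summed to 163 to 223 CPM against 494 to 901 CPM, mostly Cd74, which interferon also induces. In that list Ms4a7 shared the order (1.02 to 1.45 against 1.79 to 6.11 CPM), and Cd163, Mrc1 and Lyve1 did not. Cd163 had 0.81 to 1.25 CPM in the low libraries and 0.656 to 0.864 CPM in the others, and Mrc1 (2.30 to 5.00 and 3.55 to 7.13 CPM) and Lyve1 (0.321 to 0.471 and 0.0875 to 0.563 CPM) overlapped. In the sums of these 5 lists the low and high libraries did not overlap, and their part in the levels of the 48 genes was not tested.

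**Figure D5:**
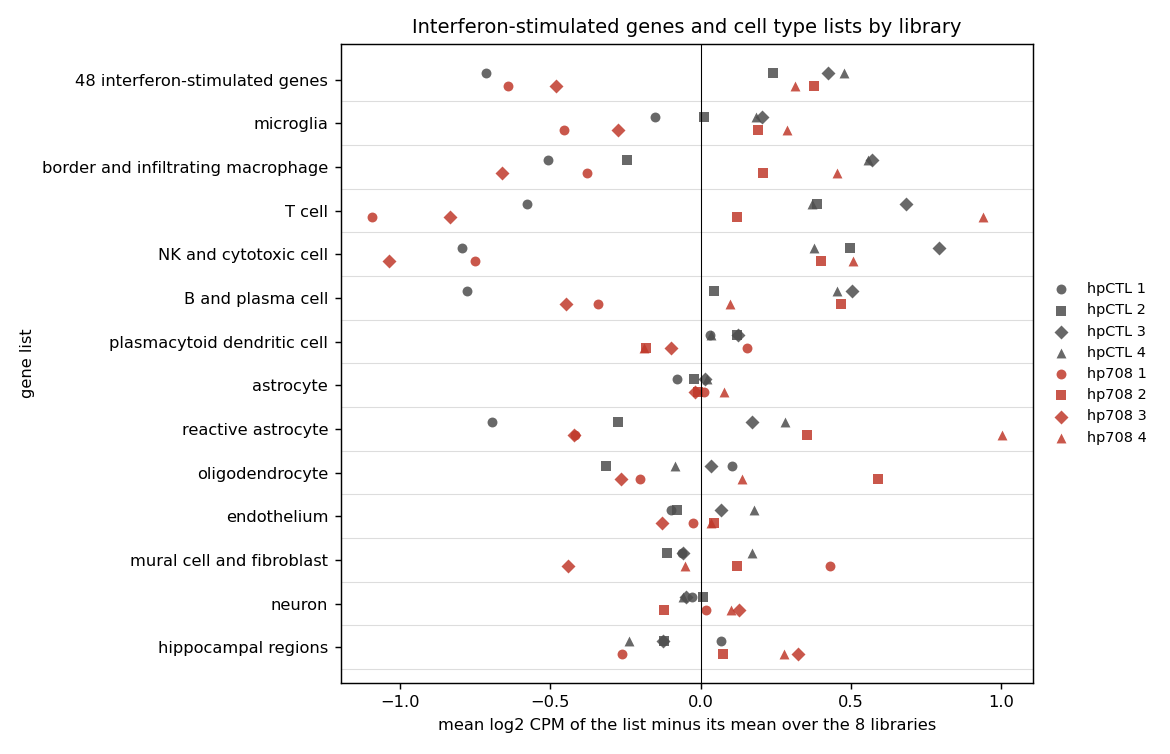
Rows are the 48 genes and 13 cell type lists, and the neutrophil and choroid plexus lists are not drawn. The x axis is the mean log2 CPM of the list minus its mean over the 8 libraries, and symbols are single libraries (hpCTL grey, hp708 red). In the rows of microglia, macrophage, T cell, NK, B cell and reactive astrocyte genes the points of hpCTL 1, hp708 1 and hp708 3 lie left of the others, and in the neuron and astrocyte rows they do not.

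Other cell types shared that order in part or not at all. The reactive astrocyte list had the same 3 lowest libraries by its mean log2 CPM (3.97 to 4.25 against 4.39 to 5.67), but its summed CPM overlapped, 672 to 893 against 761 to 1740, and Gfap made up most of it. Vim (70.8 to 98.9 against 102 to 216 CPM) and Cd44 (6.64 to 8.55 against 10.9 to 26.6 CPM) had the same 3 lowest libraries, and Gfap, Serpina3n, Lcn2 and Steap4 did not. Astrocyte genes summed to 4003 to 4706 CPM in the low libraries and 3980 to 4391 CPM in the others, and neuron genes to 8105 to 9837 and 7961 to 9380 CPM. Oligodendrocyte, endothelial, mural and hippocampal region lists overlapped as well. The choroid plexus list also overlapped, and its sum ran from 52.4 to 2053 CPM in hpCTL and from 105 to 4393 CPM in hp708. Neutrophil genes summed to at most 1.05 CPM, with Ly6g at 0 counts in every library. Of the plasmacytoid dendritic cell genes, Klk1 was at 0 counts in every library and Siglech, which microglia share, had 15.4 to 21.6 CPM. Between hp708 and hpCTL the mean log2 CPM of the 15 lists had raw p from 0.143 to 0.886, and from 0.0571 to 1 without hp708 replicate 1 (two-sided exact permutation tests). The smallest raw p that 4 against 4 allows is 0.0286, and a list that alone reached it would have an adjusted p of 0.429, so a single list could not pass. With 4 against 3 the smallest is 0.0571, which 2 lists had by the same exact test, hippocampal regions (a difference of 0.33 in log2 CPM, 0.21 with all 8 libraries) and plasmacytoid dendritic cell genes (-0.23, and -0.16 with all 8). For the microglia list the difference was -0.13 in log2 CPM, and 0.01 without hp708 replicate 1. For the T cell list it was -0.43, and -0.14 without that library.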

How the data were processed

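The authors aligned polyA-RNA reads to GRCm39 with STAR 2.7.8a, counted them per gene with featureCounts 1.6.4 on GENCODE M26 and deposited raw, whole-number counts, 1 column per animal, without normalization (tools and versions are credited to the submitters' processing notes, which also name edgeR 3.32.1). All 8 columns were matched to samples by animal number. Genes were named from GENCODE M39 of the same build (39641 of 40659 matched).

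Genes were kept by filterByExpr and tested in R 4.3.3 with edgeR 4.0.16, fitted as in edgeR 3 (quasi-likelihood, TMM, Benjamini-Hochberg over all 17252 genes), with 3 surrogate variables from sva 3.50.0. The study's methods name edgeR's likelihood ratio test with 3 surrogate variables and a figure legend the quasi-likelihood model. The latter was the main test here, and the former and DESeq2 1.42.0 were alternatives. The functions were tested on simulated data with 200 changed genes, called at an FDR below 0.05. With a hidden factor, 18 of 167 calls were false with 3 surrogate variables and 1 of 168 without. In the plain simulation 14 of 176 were false with 3 surrogate variables and 7 of 173 without. Standard errors came from the log2 fold change and its test statistic. Log2 CPM used a prior count of 2. Gene exon length was the union of exons. Promoter windows and the miRNA came from RefSeq, 3'UTRs from GENCODE.

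The 48 genes and all lists were chosen with earlier results of these data known. Values in every library were to be given for 20 listed genes, and genes most and least like the 48 were the 15 highest and 5 lowest Pearson r. Ly6e, Oas3, Oasl1, Ifi44 and Camkv, among others, are given values beyond that rule after being seen. Low and high libraries were read off the data and were neither averaged nor tested as groups. P-values measure the spread between these mice, and in fits with surrogate variables only the part of it left after those variables. Libraries of a group differed by more than sampling noise (chi-square per degree of freedom 10.04 to 46.2 over genes with at least 20 counts), so none was a copy. Some results of the lists are not reported here.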

Additional observations from a re-analysis of the deposited data

Results flagged for a closer look

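Of 130 groups of 4 libraries checked (the 48 genes, their mean, the 15 marker lists and the total count in each group), 9 held a library far from the other 3 of its group, where chance alone gives about 1 in 20, or 6.5. All 9 were genes of the list in hpCTL replicate 1, the lowest library of its group in each, and no list, mean or total was among them. Ifit3 had 23.5 CPM there (46.3 to 49.5 in the other hpCTL libraries), Ifit3b 13.8 (20.1 to 21.1), Oas2 3.64 (12.5 to 14.1) and Oasl2 24.8 (64.0 to 71.9). Ifi44 had 3.18 CPM (10.6 to 12.1), Stat2 43.8 (68.1 to 71.6), Xaf1 9.17 (19.9 to 21.9), Zbp1 5.18 (15.04 to 16.5) and Phf11d 2.46 (5.64 to 5.97). These genes vary together, so the 9 values are not separate events. In the hp708 group the 4 libraries fell into 2 pairs, which this check cannot pick out.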

How the results depend on the processing

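The cause of each change below was not tested. Only 1 gene of all tested passed an FDR of 0.05. That count was 127 by the likelihood ratio test and 96 by DESeq2 in the fits that kept 3 surrogate variables, 12 if no gene was filtered out, 3 by the edgeR 4 quasi-likelihood, and 2 by either of the former tests once the surrogate variables were dropped. It was 0 for the quasi-likelihood test so reduced (312 at an unadjusted p below 0.05) and 0 if every library had to hold at least 10 counts (907). Fits on 7 libraries called 0 (hpCTL replicate 3 left out, 520 at an unadjusted p below 0.05) to 56 (hp708 replicate 1 left out) genes, and 0 if the surrogate variables were dropped as well (240 to 596). With 3 surrogate variables but without hp708 replicate 1, added after the data were seen, the likelihood ratio test called 445 and DESeq2 273, none of them of the 48. Of the 48 genes, 0 were called at first, 18 by the likelihood ratio test, 16 by DESeq2, 1 (Oasl2) if no gene was filtered out, and 0 on any 7 libraries. No gene of the 48 had a log2 fold change above 0, but 2 did if every library had to hold at least 10 counts. On 7 libraries 0 to 10 did, the 10 if hp708 replicate 1 was the one missing (10 also by the likelihood ratio test and DESeq2). After dropping the surrogate variables too, the range was 0 to 19, namely 19 lacking hp708 replicate 1, 14 lacking hpCTL replicate 4, 12 lacking hp708 replicate 3, 8 lacking hpCTL replicate 3 and 3 lacking hpCTL replicate 2.

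The median log2 fold change of the 48, -0.51, ranged on 7 libraries from -0.71 (hp708 replicate 4 missing) to -0.09 (hp708 replicate 1 missing). It ranged from -0.39 (hpCTL replicate 1 missing) to -0.02 (hp708 replicate 1 missing) if the surrogate variables were dropped too, and was -0.21 if every library had to hold at least 10 counts. Of 1248 single values over 26 fits, leaving aside the added pair, 1178 were below 0. The replicate numbers did not pair the mice, since libraries of the same number had r between -0.04 and 0.02. In a fit with a replicate block and no surrogate variables, 1 gene was called, 0 of the 48, 2 of the 48 were above 0 and the median was -0.19. Depth limits the genes at a few CPM, such as Oas3 and Phf11b, more than the others.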
